A study of Mus musculus with 15 samples.

Results

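The 11 RNA-Seq libraries made from 2-cell mouse embryos, of the 15 libraries in the series, were compared between 6 libraries whose genotype label is Zscan4 RNAi and 5 libraries labelled as controls. Members were taken from the named columns of the embryo table, and all 53564 genes in it were used. The labels give no strain, no RNAi reagent, no control treatment, no time of collection and no number of embryos per library. The control columns are known by group only, because they are numbered from 1 to 5 and the sample titles number those embryos differently, so control 1 to control 5 are names and nothing more. The labels give genomic DNA as the molecule, name a DNA library kit and repeat a stem cell culture protocol for the embryos, whereas the titles say RNA-Seq. Values per gene were taken here as measurements of RNA, following the titles.

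Zscan4 is a cluster of near-identical genes for SCAN-domain zinc finger proteins whose transcription starts when the mouse genome is activated at the 2-cell stage. At that stage the embryo replaces messages stored by the oocyte with messages from its own genome, first through a burst of genes and repeats restricted to the stage and then through genes for ribosomes, RNA processing and metabolism. RNAi degrades the targeted message. The series title concerns degradation of co-repressor proteins, and the comparison shows RNA levels when the Zscan4 message is lowered.

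Each value is a read count divided by the size factor of its library, here called normalised reads, and group values are means ± SD over 5 control and 6 RNAi libraries. Depth was 695524 to 1432566 reads assigned to genes. A fold is a ratio of group means, whereas a log2 fold change is the fitted difference of log2(normalised reads + 1), which understates changes of low genes. A gene is called when limma's adjusted p is below 0.05. Nothing in the labels says that libraries came from separate pools of embryos, so each p-value reflects no more than the variation among the libraries at hand, which may be technical. In bulk samples, a message may be lower because fewer cells hold it or because each cell holds less, and these cannot be told apart. Scaling sets aside how much RNA an embryo held, so a rise means a larger part of the library.

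Libraries differed within both groups. On the first principal component, which held 38.7% of the variance, controls 1 to 4 lay between 80.1 and 105, control 5 at 21.8, RNAi 2, 5 and 1 at 2.00, -11.3 and -37.4, and RNAi 6, 3 and 4 between -111 and -130. Control 5 also had the most genes detected after thinning to 695524 reads, 18165 against 16064 to 16472 in the other controls, and the lowest share of mitochondrially encoded reads, 2.26% against 2.66% to 6.05% in all others. The part of these differences in the results was not tested. List counts of 4 or more are therefore given also without control 5 and by edgeR's quasi-likelihood test. Where a named call was lost in another fit, the number of the 10 other settings and of the 11 left-out libraries under which it was lost stands after the gene, with the highest adjusted p over those fits (limma, edgeR or DESeq2), and a zero count is left out. A fit that gave the gene no adjusted p was not counted as a loss.

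Zscan4 messages fell. The 9 genes of the cluster summed to 907, 1064, 680, 676 and 345 normalised reads in controls 1 to 5, and in the RNAi libraries to between 13.9 (RNAi 4, from 12 reads) and 383 (RNAi 5), with a median of 218. RNAi 3 (379) and RNAi 5 lay above control 5, and every other RNAi library lay below all controls. The mean was 734 ± 272 in controls and 230 ± 142 with RNAi, 3.20-fold lower (mean log2 difference -2.13, exact two-sided permutation p = 0.0130 over 462 assignments). Without RNAi 4, the library with the lowest sum, the difference was -1.43 (exact permutation p = 0.0238).

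**Figure D1:**
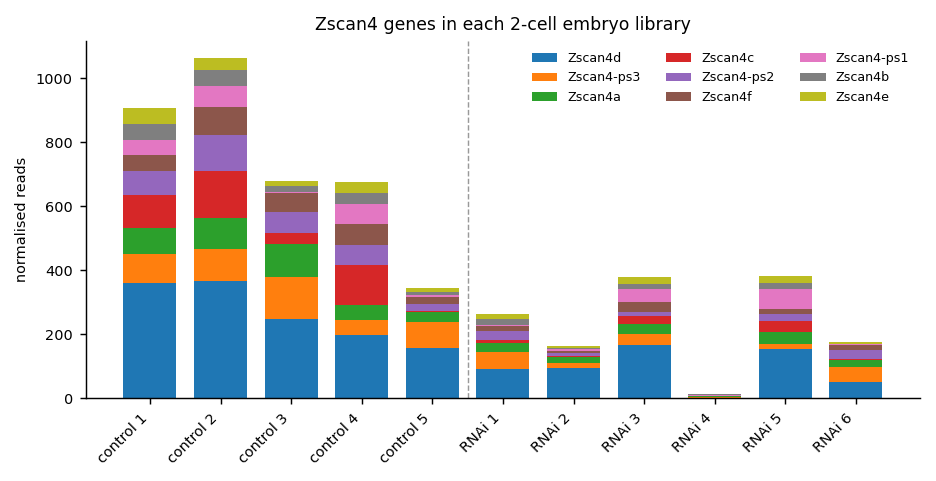
Normalised reads of the 9 Zscan4 genes, stacked by gene, in each of the 5 control and 6 RNAi libraries. The stacks reach 345 to 1064 in controls and 13.9 to 383 with RNAi, and the stack of control 5 is lower than those of RNAi 3 and RNAi 5.

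The copies differed from each other in how evenly they were read. Zscan4d, on chr7:11161374-11166159, stood at 156 to 368 in controls and at 1.16 to 166 with RNAi, so only RNAi 3 reached into the control range; its mean went from 266 ± 94.9 to 92.9 ± 61.8, a log2 fold change of -2.22 (SE 0.77, adjusted p = 0.0488). Zscan4c, on chr7:11005745-11010547, was 2.93 in control 5 against 33.4 to 148 in the other controls, and missed the threshold (log2 fold change -2.58, SE 0.90, adjusted p = 0.0504). Zscan4-ps1 split the controls into 45.3 to 64.9 (controls 1, 2 and 4) and 1.39 to 3.91 (controls 3 and 5), and the RNAi libraries into 40.4 and 62.2 (RNAi 3 and 5) and at most 5.74 in the other 4. Since reads of one copy can be assigned to another, single copies are uncertain. The 5 of 9 copies that fell (55.6%, all genes 12.0%) were Zscan4-ps3 and Zscan4-ps2 with Zscan4f, Zscan4d and Zscan4a. Zscan4 genes that fell numbered 1 without control 2, 2 without control 3, 3 without control 1 and 8 without RNAi 5. Without control 5, 7 Zscan4 genes fell, and by edgeR 5. Zscan4d (6 settings and 6 libraries, adjusted p up to 0.109), Zscan4-ps3 (1 library, adjusted p up to 0.0532), Zscan4-ps2 (1 library, adjusted p up to 0.0594), Zscan4f (1 library, adjusted p up to 0.0505) and Zscan4a (1 setting and 3 libraries, adjusted p up to 0.0810) lost their calls in such fits.

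Across the table, 2983 of 16417 genes tested were called (18.2%): 1007 rose (6.13%) and 1976 fell (12.0%), so 33.8% of the calls were higher. Without control 5 the counts were 1320 and 2255. The total was 1742, 1922 and 1744 without control 2, 3 or 4. Of these, 1209, 1332 and 1225 fell, of 15933, 15848 and 15840 genes tested. By edgeR 925 rose and 1244 fell, of 16417. Calls were thus fewer across the whole table in these fits. List counts below from such fits are to be read beside these totals, not beside 12.0% or 6.13%. With quantile normalisation 1396 rose and 1609 fell, a share of 46.5% higher. That scaling moved the median log2 fold change of all genes from -0.03 to 0.14, and library-total scaling moved it to -0.11. Falls were larger than rises: among called genes, 1205 fell and 196 rose at least 4-fold, with median log2 fold changes of -2.19 and 1.52.

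The share of genes that rose was largest among the most abundant messages, and the share that fell at the level below. Of 421 genes with a mean of at least 300 normalised reads, 31.1% rose and 13.3% fell. Of 1409 genes with a mean from 100 to 300, 15.97% rose and 26.3% fell. Of 3507 genes with a mean from 30 to 100, here called middle level, 8.55% rose and 22.4% fell. Of 2709 genes at the lowest level only 2.07% rose and 1.96% fell, so genes of few reads were seldom called. The shares of all genes given beside lists below include them and are not matched for level. A list share near 22.4% lower is thus not shown to exceed that of genes of middle level. The 50 most abundant genes of each library took 21.2 ± 1.33% of reads in controls and 29.3 ± 3.09% with RNAi (exact two-sided permutation p = 0.00433, adjusted p = 0.0130 over 3 library measures). The ranges, 19.5% to 23.0% and 24.3% to 32.7%, did not overlap. Of the other measures, the number of genes detected after thinning was 16636 ± 869 and 16369 ± 995 and the share of mitochondrially encoded reads 4.58 ± 1.42% and 4.30 ± 1.31% (both adjusted p = 0.736, exact permutation). The most abundant gene in both groups, CT010467.1, shares its exons with Gm42418 and AY036118, and these held 81.3% to 92.3% and 74.5% to 88.6% as many reads, so the 3 values are not separate measurements. Without these 3 genes, the share of the 50 most abundant was still 7.74 percentage points higher with RNAi (8.16 with them).

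**Figure D2:**
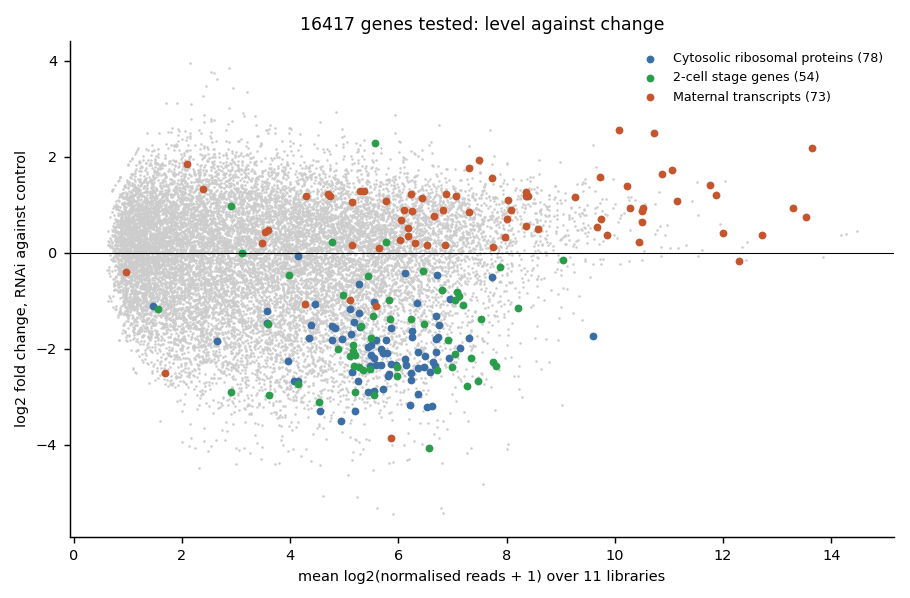
Fitted log2 fold change of each of 16417 genes tested against its mean log2 level over the 11 libraries, with 3 gene lists in colour. Most ribosomal protein genes (median -2.04) and 2-cell stage genes (median -1.80) lie below 0 at middle levels, and most maternal transcripts (median 0.88) lie above 0, up to high levels.

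Genes of the first zygotic burst fell. Of 54 measured genes on a list of 2-cell stage genes, 29 fell (53.7%, all genes 12.0%) and 1 rose (median log2 fold change -1.80, all genes -0.03). Without control 5, 32 fell. Pramel6, of a family of leucine-rich repeat proteins, stood at 112, 146, 86.3, 149 and 71.4 in controls 1 to 5 and at 1.74 to 41.5 with RNAi (median 21.1). The groups did not overlap, which held for 4.28% of all genes in this direction, and RNAi 4 and RNAi 6 were lowest. The mean of Pramel6 went from 113 ± 34.7 to 20.1 ± 15.2, with a log2 fold change of -2.90 (SE 0.58, adjusted p = 0.00409). Its relative Pramel7 fell 4.03-fold, the F-box gene Fbxo15 fell from 417 ± 176 to 91.4 ± 55.2, and B020031M17Rik fell 4.16-fold without overlap. Trim43b, of a stage-restricted TRIM family, had no read in RNAi 6 and 148 to 160 in RNAi 1, 2 and 5. Tcstv1 was 274 ± 93.1 and 223 ± 65.3 (adjusted p = 0.529). Zfp352 was 477 ± 161 and 244 ± 140 and lay just past the threshold (log2 fold change -1.15, adjusted p = 0.0519). Zfp750, the list member that rose, was 7.55 to 55.7 in controls, highest in control 5, and 55.0 to 222 with RNAi. By edgeR's quasi-likelihood test on the recovered reads 13 list members fell, and by DESeq2 19. Trim43b (1 setting, adjusted p up to 0.0692) lost its call in such fits.

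The gene with the smallest p of the table was Gm12624, a pseudogene annotated at chr11:60666684-60667065 that was singled out after its values were seen. Controls 1 to 5 stood at 307, 314, 475, 242 and 98.7, and RNAi libraries at 0.868 to 18. Every RNAi library lay below every control (log2 fold change -5.10, SE 0.54, adjusted p = 9.85e-05, 33.4-fold lower). The genes with the largest falls outside the lists and without overlap included Exoc3l2, an exocyst-related gene, which fell 15.3-fold from 520 ± 227 to 33.9 ± 52.3, with 136 in RNAi 2 and none in RNAi 3. Nup62cl fell 8.82-fold to 39.0 ± 36.3, AA414992 fell 6.10-fold to 98.6 ± 105, Stmn3 8.59-fold to 14.1 ± 24.0 and Renbp 10.7-fold to 9.17 ± 12.7. Sardh, the mitochondrial sarcosine dehydrogenase, which shares exons with Sardhos, had 156 reads over the controls and 2 over the RNAi libraries, a ratio of 99.6 with a 95% interval of 27.1 to 829 from counting error only. Bex1 and Tceal7 share exons and both were at 0 in RNAi 1 and RNAi 2 and at 86.6 and 42.4 in RNAi 5, so their values are not separate measurements. AA414992 (1 setting, adjusted p up to 0.0776), Bex1 (1 setting, adjusted p up to 0.104) and Tceal7 (1 setting, adjusted p up to 0.126) lost their calls in such fits.

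The Obox genes, homeobox genes of which some are stored by the oocyte and others are transcribed at the 2-cell stage, did not move as one. Obox6, Obox8 and Obox3 fell, 3 of 7 measured (42.9%, all genes 12.0%). Obox3 (chr7:15479825-15639902) stood at 429, 522, 639, 318 and 138 in controls 1 to 5 and at 50.8, 194, 10.4, 0, 28.9 and 9.55 in RNAi 1 to 6. RNAi 2 lay above control 5 and every other RNAi library lay below all controls (log2 fold change -4.32, SE 0.85, adjusted p = 0.00389). Obox6 fell from 613 ± 190 to 119 ± 61.6 and Obox8 from 176 ± 81.2 to 25.8 ± 22.5, both without overlap. In contrast Obox5 stood at 1290 to 2127 in controls and at 1331 to 4270 with RNAi, where RNAi 1, 4 and 6 were above every control and the other 3 within their range (log2 fold change 0.57, SE 0.32, adjusted p = 0.217). Obox1 and Obox7 had the same 3 libraries highest, with means of 288 ± 70.6 and 857 ± 694 for Obox1 and 73.4 ± 23.9 and 144 ± 104 for Obox7 (adjusted p = 0.061 and 0.317). Obox1, which shares exons with Obox2, was called higher under TMM or quantile scaling and by edgeR and DESeq2 (log2 fold change 1.09 to 1.64).

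Promoter sequence before the RefSeq start was compared between lists, because these genes moved together. Windows of 300 bases, 250 before and 50 after the start, were matched for 10743 tested genes, 21 of them on the 2-cell list. The motif GGATTA, or its reverse complement TAATCC, the core bound by Otx and Obox homeodomains, lay in 33.3% of the 2-cell promoters (7 of 21), in 6.12% of all and in 9.04% of those of genes that fell. TGCACAC, a motif reported for Zscan4, lay in 4.76% (1 of 21) and in 3.73% of all. TATAAA lay in 19% and 7.90%. The 2-cell promoters also had a lower median GC content, 45.7% against 60% of all, and a median of 1 CpG against 20, which bears on how often such letters occur and was not taken into account. Several of the 21 belong to families of near-identical copies and are not independent, and a match is a description of letters only. The stretches below are the bases in no annotated exon, on GRCm38.p6 from RefSeq, with the GGATTA core, on either strand, and TATAAA in capitals. Zfp352, Tdpoz1 and Obox3 were chosen for their matches after values were seen, and Usp17lb, Pramel6, Trim43a and Sp140 had the smallest p among 2-cell genes with a matched promoter.
Zfp352 (chr4:90218570-90218819, plus strand): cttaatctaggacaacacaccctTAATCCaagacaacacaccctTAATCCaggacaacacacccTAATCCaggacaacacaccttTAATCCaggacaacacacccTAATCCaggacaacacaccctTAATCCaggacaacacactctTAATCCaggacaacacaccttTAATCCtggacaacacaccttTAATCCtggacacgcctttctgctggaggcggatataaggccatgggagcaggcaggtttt
Tdpoz1 (chr3:93676311-93676433, minus strand): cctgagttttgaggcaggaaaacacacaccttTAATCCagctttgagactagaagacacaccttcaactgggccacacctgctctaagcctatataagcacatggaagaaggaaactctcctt
Obox3 (chr7:15639903-15639977, minus strand): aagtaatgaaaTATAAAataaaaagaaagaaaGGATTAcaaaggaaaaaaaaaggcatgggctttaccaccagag
Usp17lb (chr7:104842604-104842703, minus strand): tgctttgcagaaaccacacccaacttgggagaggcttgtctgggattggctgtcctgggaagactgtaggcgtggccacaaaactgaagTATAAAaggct
Pramel6 (chr2:87506445-87506564, plus strand): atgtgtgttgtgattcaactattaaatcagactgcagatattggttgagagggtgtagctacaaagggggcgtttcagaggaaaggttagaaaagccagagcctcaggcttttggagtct
Trim43a (chr9:88580771-88580890, plus strand): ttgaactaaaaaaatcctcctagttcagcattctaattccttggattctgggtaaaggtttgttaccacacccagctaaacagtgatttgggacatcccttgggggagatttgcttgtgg
Sp140 (chr1:85600600-85600702, plus strand): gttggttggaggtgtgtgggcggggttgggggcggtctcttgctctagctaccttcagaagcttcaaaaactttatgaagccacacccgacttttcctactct
Zfp352 carried TAATCC 9 times in this stretch, from position -227 to -61. The bases around these matches recur as a repeated unit, so the 9 are not separate matches. The part of repeated sequence in the shares above was not tested. Tdpoz1 carried it at -118, and Obox3 carried TATAAA at -189 and GGATTA at -168. Pramel6, Trim43a and Sp140 carried none of the motifs searched in the stretches shown, and Usp17lb carried only TATAAA, at -31. Tdpoz1, a BTB-domain gene of the 2-cell stage, fell from 90.2 ± 25.1 to 30.1 ± 27.9 without overlap (adjusted p = 0.0235), whereas Zfp352, with the most matches, missed the threshold. Tdpoz1 (2 settings and 4 libraries, adjusted p up to 0.111) lost its call in such fits.

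Dux, annotated as Duxf3 (chr10:58229979-58232675), encodes a homeodomain factor that switches on 2-cell genes and is itself repressed soon afterwards. It rose, whereas most called genes of the 2-cell list fell. Controls 1 to 5 held 2.52, 0, 0, 0 and 0.978 normalised reads, and RNAi 1 to 6 held 4.81, 5.74, 11.7, 31.3, 9.92 and 103. The groups did not overlap, and RNAi 6 stood far above the rest (log2 fold change 3.46, SE 0.73, adjusted p = 0.00502). Dux lies in a tandem repeat, so its reads may be split among copies. Of the 8 measured genes on the list of Dux and its regulators, 2 fell: Dppa4, an activator of Dux in stem cells, fell from 240 ± 110 to 44.0 ± 35.4, and Smchd1, a chromatin repressor, fell 3.28-fold. Dppa3, a maternal factor on the same list, was 3304 ± 1299 and 3351 ± 1161. Smchd1 (1 setting and 2 libraries, adjusted p up to 0.0751) lost its call in such fits.

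Among 32 early zygotic transcription factors, 12 fell (37.5%, all genes 12.0%) and 2 rose (6.25%, all genes 6.13%), with a median of -0.72. Nfyb, a subunit of the CCAAT-box factor NF-Y, fell from 122 ± 58.4 to 14.8 ± 18.4; its RNAi libraries held 6.07 to 8.93 except RNAi 5, with 52.3, and all lay below the controls (log2 fold change -3.31, SE 0.52, adjusted p = 0.00155). Zscan5b fell from 266 ± 67.2 to 51.2 ± 41.9 and the nuclear receptor gene Nr2c2, which shares exons with Gm44249 and Mrps25, fell 5.13-fold. Gabpa, an ETS factor that shares exons with Atp5j, fell 5.65-fold. Hsf1, the heat shock factor, rose from 157 ± 60.3 to 438 ± 188, and Max, the partner of Myc, rose from 107 ± 53.4 to 193 ± 37.7. Klf17 was 598 ± 92.8 and 861 ± 435 (adjusted p = 0.343). Without control 5, 11 early zygotic factors fell, and by edgeR 9. Max (4 settings and 8 libraries, adjusted p up to 0.129) lost its call in such fits.

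The enzymes that make RNA fell in part. Of 32 subunits of RNA polymerases I, II and III, 14 fell (43.8%, all genes 12.0%), with a median of -1.20. Without control 5, 16 of 31 fell (all genes 2255 of 15895). Polr1c, shared by polymerases I and III, stood at 304, 233, 289, 251 and 126 in controls 1 to 5 and at 3.91 to 117 with RNAi (median 31.9). No RNAi library reached the controls, and RNAi 3, 4 and 6 held at most 11.6 (log2 fold change -3.13, SE 0.64, adjusted p = 0.00421). Polr1e, of polymerase I, fell 7.05-fold and Polr3b, of polymerase III, which shares exons with Gm17249, fell 5.05-fold. Znrd1, of polymerase I, was at 1.30 to 3.48 in 5 RNAi libraries and at 67.2 in RNAi 2. Polr2c, of polymerase II, which shares exons with Dok4, lay above all controls in every RNAi library (1079 ± 162 and 1762 ± 442) but missed the threshold (adjusted p = 0.0586). RNA polymerase subunits that fell numbered 7 without control 2 (all genes 1209 of 15933) and 8 without control 3 (all genes 1332 of 15848). By edgeR 11 of them fell (all genes 1244 of 16417). Znrd1 (1 setting, adjusted p up to 0.0536) lost its call in such fits.

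General transcription factors and Mediator, the complex that joins activators to polymerase II, held members that rose and members that fell. Of 34 general factors, 5 fell and 3 rose, and of 30 Mediator subunits 5 fell and 3 rose, near the shares of all genes. Gtf2f1 and Gtf2f2, both subunits of TFIIF, fell from 201 ± 39.8 to 44.1 ± 34.5 and from 165 ± 65.9 to 32.5 ± 19.7. Taf9b and Taf13, subunits of TFIID, rose from 160 ± 52.7 to 290 ± 29.3 and from 80.2 ± 19.9 to 244 ± 183. Med1 rose without overlap from 100 ± 35.4 to 211 ± 35.9. Med29, which shares exons with Gm44710, fell 7.82-fold to 49.5 ± 53.4. General transcription factors that fell numbered 2 without control 2 or control 3 and 3 without control 1 or control 4 or RNAi 3 or RNAi 4. Mediator subunits that fell numbered 1 without control 2, 2 without control 1 or control 3 or control 4 and 3 without RNAi 1. Without control 5, 7 general transcription factors and 10 Mediator subunits fell, and by edgeR 3 and 3. Taf9b (1 setting and 3 libraries, adjusted p up to 0.0786) and Taf13 (7 libraries, adjusted p up to 0.0655) lost their calls in such fits.

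**Figure D3:**
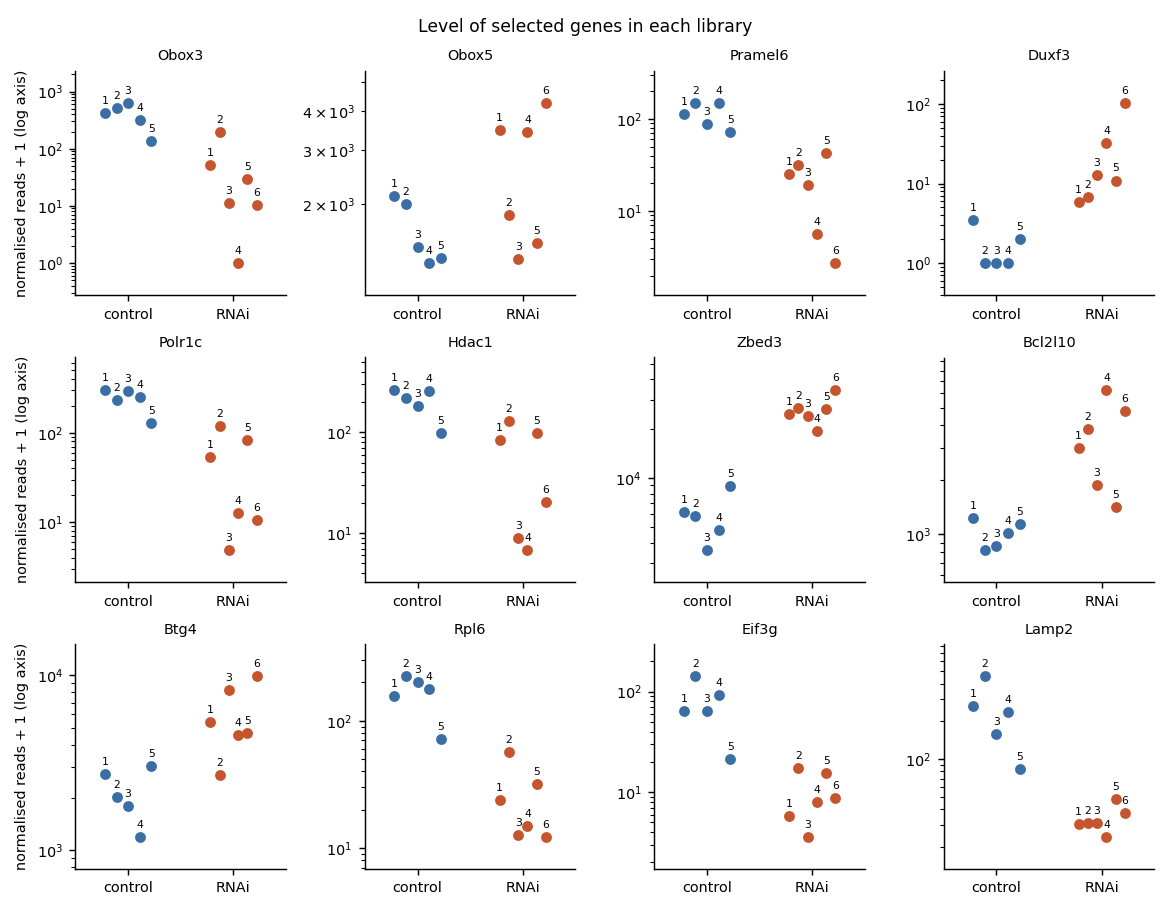
Normalised reads + 1, on a log axis, of 12 genes in each library, labelled by library number. RNAi libraries lie below all controls for Pramel6, Polr1c, Eif3g, Rpl6 and Lamp2 and above all controls for Duxf3, Zbed3 and Bcl2l10, whereas the groups overlap for Obox3, Obox5, Hdac1 and Btg4.

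Messages stored by the oocyte rose relative to the rest. Of 73 measured genes on a list of maternal transcripts, 27 rose (37.0%, all genes 6.13%) and 2 fell (median 0.88). Without control 5, 28 of 72 rose, and by edgeR 29. Maternal transcripts that rose numbered 15 without control 4, 16 without control 2 and 17 without control 3. Zbed3, which encodes a partner of the subcortical maternal complex, stood at 6166, 5806, 3629, 4795 and 8869 in controls 1 to 5 and at 19343 to 34679 with RNAi (median 25409). Every RNAi library lay above every control, and control 5 was the highest of its group (log2 fold change 2.19, SE 0.28, adjusted p = 0.000471). The list member E330034G19Rik went from 413 ± 57.4 to 2560 ± 1006, a rise of 6.20-fold, and Rfpl4, an oocyte RING finger gene, rose 6.30-fold from 677 ± 203 to 4267 ± 2707 with RNAi 6 highest at 9267. Bcl2l10, an oocyte member of the BCL2 family, rose 3.47-fold, and Oas1e rose 3.55-fold. Tcl1, an AKT cofactor among the 10 most abundant genes, rose from 7117 ± 1110 to 14146 ± 5880, whereas Spin1 (9389 ± 2895 and 15702 ± 4940, adjusted p = 0.0925), Omt2b and Oog3, also among them, were not called. Rfpl4b, a relative of Rfpl4 on the same list, fell 11.8-fold from 303 ± 166 to 25.6 ± 30.1, and Sohlh1 fell from 10.04 ± 7.29 to 0.711 ± 1.12. Tcl1 (2 settings and 5 libraries, adjusted p up to 0.540) lost its call in such fits.

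In the lists of the maternal complex and of zona and secreted factors, the called members all rose. In the subcortical maternal complex, Zbed3 and Ooep rose, 2 of 9 (22.2%, all genes 6.13%). Zbed3 was already given above and is not a further case. Ooep went from 74.3 ± 13.8 to 207 ± 137 with RNAi 6 at 444. Nlrp5, another member, was 57.4 to 131 in 5 RNAi libraries and 520 in RNAi 6 (adjusted p = 0.107). Of 12 zona pellucida and oocyte-secreted genes 2 rose (16.7%, all genes 6.13%). They were the oocyte growth factors Bmp15 and Gdf9, from 1192 ± 501 to 3892 ± 1523 and from 222 ± 94.8 to 548 ± 373. The zona gene Zp3 was 78.8 ± 33.0 and 37.2 ± 20.3 (adjusted p = 0.0723). Ooep (2 settings and 8 libraries, adjusted p up to 0.0931) and Gdf9 (6 libraries, adjusted p up to 0.0921) lost their calls in such fits.

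The machinery that stores and removes maternal messages was called in shares near those of all genes: 4 of 44 were higher (9.09%, all genes 6.13%) and 7 lower (15.9%, all genes 12.0%), with a median of -0.04. Btg4, the adaptor that brings the CCR4-NOT deadenylase to maternal messages, stood at 2733, 2019, 1785, 1193 and 3046 in controls 1 to 5 and at 2703 to 9871 with RNAi (median 5020). Only RNAi 2 lay within the control range, and Btg4 rose 2.74-fold (log2 fold change 1.40, SE 0.33, adjusted p = 0.00818). Cnot7, a catalytic subunit of the deadenylase that shares exons with Zdhhc2, rose from 1056 ± 200 to 1936 ± 404 without overlap. Cpeb1, which binds stored messages in the oocyte, rose 2.12-fold, whereas Cpeb2, of the same family, which shares exons with Gm7854, fell 12.4-fold and was at 0 in RNAi 1, 3, 4 and 6. Ythdf2, a reader of methylated adenosine that is needed for maternal decay, fell from 291 ± 100 to 105 ± 49.0, and the helicase gene Ddx6 fell 3.85-fold. Storage and decay genes that rose numbered 1 without control 2 and 2 without control 1 or control 3 or control 4 or RNAi 1 or RNAi 2 or RNAi 6. Storage and decay genes that fell numbered 4 without control 2 or control 3. Without control 5, 8 storage and decay genes rose, and by edgeR 4. Without control 5, 7 storage and decay genes fell, and by edgeR 3. Btg4 (1 setting, adjusted p up to 0.131), Cnot7 (1 setting and 2 libraries, adjusted p up to 0.227) and Cpeb1 (2 settings and 7 libraries, adjusted p up to 0.0904) lost their calls in such fits.

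**Figure D4:**
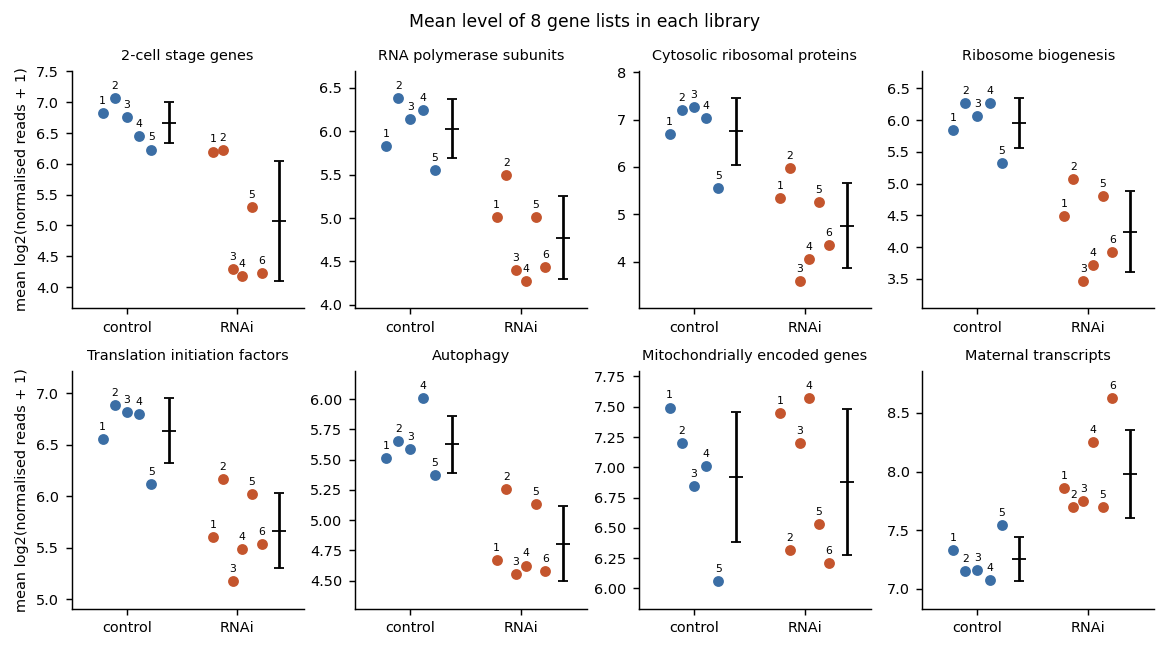
Mean log2(normalised reads + 1) over the measured members of 8 gene lists in each library, numbered, with the group mean and SD as bars. For ribosomal protein genes control 5 (5.56) lies below RNAi 2 (5.98), whereas for maternal transcripts every RNAi library (7.70 to 8.62) lies above every control (7.08 to 7.55); mitochondrially encoded genes overlap.

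Genes for the ribosome had the largest share of lower members among the 54 lists. Of 78 cytosolic ribosomal protein genes 59 fell by limma (75.6%, all genes 12.0%) and 0 rose (median -2.04). None was higher at an unadjusted limma p under 0.05, by edgeR or by DESeq2. Without control 5, 65 fell, 49 to 65 fell when any 1 library was left out, and 53 by edgeR. Rpl6, of the large subunit, stood at 155, 222, 202, 176 and 70.4 in controls 1 to 5 and at 11.3 to 55.8 with RNAi (median 18.3). All RNAi libraries lay below all controls, with RNAi 2 nearest (log2 fold change -2.85, SE 0.43, adjusted p = 0.00131). Rpl9 of the large subunit and Rps3a1 of the small subunit fell 7.93-fold and 6.63-fold. For each of them RNAi 2, at 55.8 and 118, lay just above control 5, at 51.8 and 106. Reads of ribosomal protein genes may be shared with pseudogenes, and Rpl6 shares exons with Gm26205; of the 40 members that share no exon with another gene 32 fell. Of 10 genes for ribosomal protein paralogs 7 fell (70.0%, all genes 12.0%). Among them were Rpl10l, from 108 ± 49.2 to 18.2 ± 16.8, and Rpl7l1, from 106 ± 26.3 to 24.4 ± 13.5. Rps27l, known as a p53 target, rose from 499 ± 112 to 909 ± 272. Paralog genes that fell numbered 4 without control 2. Without control 5, 8 paralog genes fell, and by edgeR 5. Rps27l (2 settings and 8 libraries, adjusted p up to 0.0908) lost its call in such fits.

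Ribosome assembly factors went with them. Of 99 genes 67 fell by limma (67.7%, all genes 12.0%) and 0 rose (median -1.67). None was higher at an unadjusted limma p under 0.05, by edgeR or by DESeq2. Without control 5, 70 fell, and by edgeR 44. Assembly factors that fell numbered 42 without control 2 and 43 without control 4. Nop16, a nucleolar protein gene, stood at 247, 439, 373, 306 and 86.0 in controls 1 to 5 and at 9.29 to 101 with RNAi (median 16.9). RNAi 5 lay above control 5 and RNAi 2, at 85.3, just below it (log2 fold change -3.24, SE 0.57, adjusted p = 0.00238). Nifk fell 5.42-fold, and the methyltransferase gene Nop2 fell from 113 ± 36.2 to 38.6 ± 39.1, with RNAi 2 at 97.6 and RNAi 4 at 1.16. Npm1, the abundant nucleolar chaperone, was 811 ± 342 and 457 ± 156 (adjusted p = 0.119). Among 16 host genes of small nucleolar RNAs 4 fell and 1 rose; Snhg15, which shares exons with Snora9, fell from 107 ± 44.6 to 16 ± 7.61. Host genes that fell numbered 2 without control 2 or control 3 or RNAi 6. Without control 5, 7 host genes fell, and by edgeR 2. Of 58 assembly factors that share no exon with another gene 37 fell. Nop2 (2 settings and 4 libraries, adjusted p up to 0.144) lost its call in such fits.

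Promoters of these genes held other motifs. CCGGAAG, a motif of ETS factors, lay within 38.6% of 57 ribosomal protein promoters and 42.9% of 84 assembly factor promoters, against 17.1% of all 10743, 23.1% of those of genes that fell and 23.4% of 64 oxidative phosphorylation ones. It lay in 1.69% of 59 maternal promoters, whose median of 4 CpG was below the 22 of ribosomal protein promoters and the 20 of all. CACGTG, the E-box of Myc and its relatives, lay in 21.4% of assembly factor promoters and 9.82% of all. A C followed by 4 pyrimidines at the start itself, the opening of a terminal oligopyrimidine message, was found in 22.8% of ribosomal protein genes, 1.19% of assembly factors and 2.44% of all. The stretches below show 2 ribosomal protein genes with the smallest p and 2 assembly factors chosen for their matches after values were seen, with CCGGAAG (or CTTCCGG) and CACGTG in capitals.
Rpl6 (chr5:121204381-121204480, plus strand): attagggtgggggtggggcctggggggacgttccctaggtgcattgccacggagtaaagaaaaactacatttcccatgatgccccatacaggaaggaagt
Rpl9 (chr5:65391445-65391496, minus strand): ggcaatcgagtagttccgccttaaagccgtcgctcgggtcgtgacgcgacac
Nop2 (chr6:125131783-125131882, plus strand): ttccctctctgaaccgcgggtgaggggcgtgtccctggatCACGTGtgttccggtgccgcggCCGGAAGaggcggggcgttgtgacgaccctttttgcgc
Rpf2 (chr10:40247040-40247139, minus strand): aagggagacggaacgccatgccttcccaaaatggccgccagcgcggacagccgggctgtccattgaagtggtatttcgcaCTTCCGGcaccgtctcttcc
Nop2 carried CACGTG at -60 and CCGGAAG at -38, and Rpf2, a gene for a factor of large subunit assembly that fell from 62.5 ± 39.2 to 13.2 ± 11.4, carried the reverse complement at -20. Rpl6 and Rpl9 carried none of the motifs in the stretches shown.

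Other parts of the translation apparatus were lower to different extents. Of 45 initiation factor genes 17 fell (37.8%, all genes 12.0%) and 3 rose (6.67%, all genes 6.13%), with a median of -0.97. Without control 5, 18 fell, and by edgeR 11. Eif3g, a subunit of the factor that places the small subunit on the message, stood at 62.9, 141, 62.6, 92.5 and 20.5 in controls 1 to 5 and at 2.61 to 16.4 with RNAi (median 7.39). The groups did not overlap (log2 fold change -2.92, SE 0.53, adjusted p = 0.00270). Eif3c fell 5.97-fold, and Eif6, which acts in large subunit maturation and shares exons with Gm16098, fell from 495 ± 146 to 163 ± 46.7. The 3 that rose were Eif4e1b, the oocyte form of the cap-binding protein (53.4 ± 23.8 to 192 ± 94.6), Eif4e3, another cap-binding protein gene (117 ± 28.7 to 313 ± 164), and Eif1b (59.3 ± 8.85 to 187 ± 131). Eif4e3 shares exons with Gm20696 and Eif1b with D830035M03Rik. Initiation factors that fell numbered 8 without control 4, 9 without control 2, 10 without control 1 and 11 without control 3. Of 15 elongation and termination genes only Gspt1, a termination factor that shares exons with 2610020C07Rik, was called, lower, and by edgeR none fell; Eef1a1, which shares exons with Gm26377, was 554 ± 62.2 and 429 ± 113, and Eif5a, of the initiation list, 1497 ± 242 and 1984 ± 468 (adjusted p = 0.285 and 0.283). Gspt1 (4 settings and 7 libraries, adjusted p up to 0.111) lost its call in such fits.

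Among 21 cytosolic tRNA synthetases 6 fell (28.6%, all genes 12.0%) and 1 rose (4.76%, all genes 6.13%). Rars, for arginine, fell 8.61-fold from 77.0 ± 34.1 to 8.95 ± 4.81, and Farsb, for phenylalanine, rose from 104 ± 10.1 to 218 ± 59.7. Farsb shares exons with Sgpp2. Of 78 mitochondrial ribosomal protein genes 10 fell and 3 rose (median -0.19), close to the shares of all genes. Mitochondrial ribosomal genes that fell numbered 4 without control 4, 5 without control 2 and 6 without control 3 or RNAi 6. Without control 5, 6 tRNA synthetase genes and 13 mitochondrial ribosomal genes fell, and by edgeR 4 and 6. Mrpl34 fell from 143 ± 79.1 to 27.8 ± 23.8, while Mrpl48, which shares exons with Rab6a, rose from 122 ± 43.6 to 279 ± 103.

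In RNA processing, 17 of 65 splicing factor genes fell (26.2%, all genes 12.0%) and 2 rose (median -0.55). Of genes of middle level 22.4% fell, near this share and that of the export genes below. Dhx8, a helicase that releases the spliced message, fell without overlap, 132 ± 41.9 against 17.9 ± 13.0 (log2 fold change -3.06, SE 0.47, adjusted p = 0.00131), and Prpf38a fell 6.20-fold. Snrnp27 rose from 60.8 ± 15.7 to 148 ± 51.7. Of 49 genes for message export and the nuclear pore 11 fell (22.4%) and 2 rose (median -0.13): Nup43, of the pore's outer ring, fell from 135 ± 49.7 to 30.6 ± 8.38, Rbm8a, of the exon junction complex, fell 4.45-fold, and Sec13 rose 2.01-fold. Of 25 hnRNP genes 4 fell (16%, all genes 12.0%), Hnrnpk from 376 ± 78.8 to 188 ± 73.3, and all 4 share exons with another gene. Splicing factors that fell numbered 8 without control 3 or control 4, 9 without control 2 and 11 without RNAi 6. Export and pore genes that fell numbered 6 without control 2 and 7 without control 4. hnRNP genes that fell numbered 2 without control 4. Without control 5, 19 splicing factors, 14 export and pore genes and 5 hnRNP genes fell, and by edgeR 12, 6 and 1. Sec13 (1 setting and 6 libraries, adjusted p up to 0.0763) and Hnrnpk (1 setting and 2 libraries, adjusted p up to 0.0659) lost their calls in such fits.

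Genes for protein folding and breakdown were lower in larger shares than all genes (12.0%). In the TRiC chaperonin, which folds actin and tubulin, and its helper prefoldin, 8 of 14 fell (median -1.17); Cct3 stood at 236, 204, 191, 233 and 127 in controls 1 to 5 and at 13.0 to 102 with RNAi. No RNAi library reached the controls (log2 fold change -2.26, SE 0.41, adjusted p = 0.00283). Of 26 heat shock genes 9 fell, among them Hspb1 (603 ± 254 to 95.4 ± 55.6) and the co-chaperone gene Stip1 (401 ± 81.8 to 155 ± 59.2), while Hsf1 rose. Of 46 proteasome genes 18 fell and 2 rose (median -0.64). Psmd6 and Psmd12, of the regulatory particle, fell 3.28-fold and 3.57-fold, and the assembly chaperone gene Psmg1 rose from 20.2 ± 4.47 to 69.1 ± 36.2. TRiC and prefoldin genes that fell numbered 5 without control 2 or control 3 or control 4 or RNAi 6. Heat shock genes that fell numbered 4 without control 1 or control 4 and 5 without control 2 or control 3 or RNAi 3. Proteasome genes that fell numbered 6 without control 2 or control 4, 8 without control 3 and 11 without RNAi 3 or RNAi 4 or RNAi 6. Without control 5, 8 TRiC and prefoldin genes, 8 heat shock genes and 18 proteasome genes fell, and by edgeR 5, 5 and 11.

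Ubiquitin enzymes were called in both directions, with 5 of 51 higher (9.80%, all genes 6.13%) and 10 lower (19.6%, all genes 12.0%), and their median was -0.09. Of genes of middle level 8.55% rose and 22.4% fell, near these shares. Ube2d1, a conjugating enzyme, was at 0 in controls 2, 3 and 4 and at most 5.87 in the others, and stood at 11.5 to 27.5 with RNAi. The groups did not overlap, which held for 3.05% of all genes in this direction (log2 fold change 3.43, SE 0.64, adjusted p = 0.00331). Rnf34, a ligase gene that shares exons with Kdm2b, rose from 78.3 ± 15.4 to 509 ± 264. The deubiquitinase genes Usp2 and Usp11, outside the list, rose 5.89-fold and 5.62-fold, and Usp2 shares exons with Gm39325 and Gm49380. Cul3, a ligase scaffold, fell 5.48-fold and Dcaf13, which also serves ribosome assembly, fell 5.64-fold. Ubiquitin enzymes that fell numbered 5 without control 2 and 6 without control 1 or control 3 or control 4 or RNAi 6. Ubiquitin enzymes that rose numbered 3 without control 1 or control 3 or control 4 or RNAi 1 or RNAi 3 or RNAi 6. Without control 5, 12 ubiquitin enzymes fell, and by edgeR 7. Without control 5, 5 ubiquitin enzymes rose, and by edgeR 5.

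Lists of energy metabolism genes differed in how many members were called. Of the 37 mitochondrially encoded genes limma called 0 (median -0.09); at an unadjusted p under 0.05 the count was 1, by edgeR 1 and by DESeq2 1. The gene mt-Cytb was 16953 ± 6962 and 15202 ± 5822. Control 5, at 5345, was lowest for mt-Cytb of all 11 libraries. Of 77 nuclear genes for oxidative phosphorylation 9 fell and 2 rose (median -0.34), a share near that of all genes; Uqcrq, of complex III, fell 4.20-fold and Atp5g1, of the ATP synthase, 3.64-fold. Of 19 glycolysis genes Ldhb, the lactate dehydrogenase of the oocyte, rose from 400 ± 99.2 to 1312 ± 807, and Pgam1 fell 2.56-fold. Of 21 genes for pyruvate use and the tricarboxylic acid cycle 7 fell (33.3%, all genes 12.0%) and 1 rose. The mean log2 level of these 21 genes was 5.44 to 5.90 in controls and 4.74 to 5.27 with RNAi, without overlap. This was not particular to them. For example, Polycomb genes stood at 5.52 to 5.77 and 4.73 to 5.44, and early zygotic factors at 5.63 to 5.88 and 4.31 to 5.47. Idh3g fell from 136 ± 56.0 to 18.4 ± 11.7 and Mdh2 from 229 ± 35.9 to 64.7 ± 26.4, both without overlap. Cycle genes that fell numbered 3 without control 2 and 4 without control 1 or control 3 or control 4 or RNAi 3. Oxidative phosphorylation genes that fell numbered 5 without control 2. Without control 5, 8 cycle genes and 12 oxidative phosphorylation genes fell, and by edgeR 2 and 7. DESeq2 called 14 oxidative phosphorylation genes lower. Pgam1 (4 settings and 7 libraries, adjusted p up to 0.120) lost its call in such fits.

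DNA replication genes fell for 16 of 57 (28.1%, all genes 12.0%) and rose for 2 (median -0.76). Replication genes that fell numbered 9 without control 2. Without control 5, 20 replication genes fell, and by edgeR 11. Tyms, thymidylate synthase, stood at 103, 78.2, 79.3, 64.4 and 29.3 in controls 1 to 5 and at 0 to 10.4 with RNAi. The groups did not overlap and RNAi 3 and 4 held no read (log2 fold change -4.01, SE 0.67, adjusted p = 0.00200). Prim1, the primase, fell 6.02-fold and Pold3, a subunit of DNA polymerase delta, rose from 173 ± 94.4 to 328 ± 80.1. In the cell cycle, Cdk1 fell from 481 ± 189 to 96.9 ± 70.1, with 147 in control 5 and 537 to 609 in the other controls. Ccnb2, a cyclin B that pairs with it, rose from 96.3 ± 32.3 to 249 ± 149, while Ccnb1 was 2105 ± 671 and 2296 ± 858 (adjusted p = 0.861). The maternal cell cycle list had 6 of 25 higher and 4 lower: Wee2, the oocyte inhibitor of Cdk1, rose 1.88-fold, Mastl rose 1.94-fold, Aurka fell 2.15-fold and Fbxo5 fell 2.50-fold. Maternal cell cycle regulators that rose numbered 2 without control 2 or control 3 or control 4 and 3 without RNAi 3 or RNAi 6. Maternal cell cycle regulators that fell numbered 2 without control 1 or control 2 or control 3 or control 4 or RNAi 3. Without control 5, 5 maternal cell cycle regulators rose, and by edgeR 6. Without control 5, 4 maternal cell cycle regulators fell, and by edgeR 2. Pold3 (3 settings and 6 libraries, adjusted p up to 0.0800), Wee2 (1 setting and 4 libraries, adjusted p up to 0.236) and Mastl (2 settings and 5 libraries, adjusted p up to 0.0799) lost their calls in such fits.

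Histone genes were mostly not called, with 1 of 31 measured clustered genes higher and 1 lower, although without control 5 the numbers were 2 and 6. H1foo, the oocyte linker histone, rose from 90.3 ± 33.0 to 450 ± 472, where RNAi 4 held 1393 and the other 5 held 157 to 437. H2afz fell from 910 ± 369 to 366 ± 190, and H3f3b, a gene for histone H3.3, was 2494 ± 686 and 2706 ± 358 (adjusted p = 0.708). Npm2, the oocyte histone chaperone, which shares exons with Xpo7, and Asf1b rose 2.92-fold and 2.56-fold. The chaperone genes Set and Nasp fell 4.23-fold and 3.30-fold. Of 38 genes for chromatin assembly and remodelling 6 fell (15.8%) and 3 rose (7.89%), near the shares of all genes. Without control 5, 7 chromatin genes fell, and by edgeR 4. H2afz (2 libraries, adjusted p up to 0.0570) lost its call in such fits.

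The co-repressor proteins named by the series title were measured here only as messages. Of 41 genes on a list of LSD1, HDAC and KAP1 co-repressors 8 fell and 2 rose (median -0.33). Of the list 19.5% fell, against 12.0% of all genes, a share not matched for level. Of the 3507 genes of middle level 22.4% fell, so the list was not shown to fall more often than genes of similar level. Hdac1 (chr4:129516104-129542713), a deacetylase of these complexes, stood at 265, 216, 182, 256 and 97.8 in controls 1 to 5 and at 82.4, 130, 7.82, 5.80, 96.5 and 19.1 in RNAi 1 to 6. Only RNAi 2 exceeded control 5 (log2 fold change -2.55, SE 0.64, adjusted p = 0.0115). Rcor1, the CoREST scaffold, which shares exons with Gm48632, fell from 103 ± 31.6 to 37.2 ± 9.90, and Trim28, encoding KAP1, fell from 114 ± 34.9 to 40.3 ± 21.2, both without overlap. Kdm1a, encoding the demethylase LSD1, was 18 ± 14.1 and 24.6 ± 8.81 (log2 fold change 0.69, SE 0.51, adjusted p = 0.371), and Hdac2 was 47.7 ± 17.1 and 33.3 ± 15.7 (adjusted p = 0.355). Neither was called, and both were low enough for the depth to limit the comparison. The 2 that rose were Tbl1xr1 (73.1 ± 56.5 to 219 ± 83.2) and Cbx1 (66 ± 25 to 134 ± 31.2), whereas their relatives Tbl1x and Cbx3 fell 9.84-fold and 5.01-fold. Co-repressor genes that fell numbered 5 without control 1. Without control 5, 8 co-repressor genes fell, and by edgeR 5. Hdac1 (1 setting, adjusted p up to 0.0580) and Cbx1 (5 libraries, adjusted p up to 0.0886) lost their calls in such fits.

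Other chromatin regulators were called in small numbers. In the NuRD complex 4 of 14 fell (28.6%, all genes 12.0%), among them Cdk2ap1 (317 ± 150 to 46.3 ± 46.2) and Mta2 (155 ± 50.5 to 40.5 ± 39.0). Rbbp7, which shares exons with Txlng, was 515 ± 213 and 746 ± 612 (limma adjusted p = 0.563). In Polycomb complexes 6 of 29 fell (20.7%, all genes 12.0%, genes of middle level 22.4%) and 2 rose. Bcor stood at 48.0 to 105 in controls and at 0 to 2.61 in 5 RNAi libraries, with 28.9 in RNAi 5 (log2 fold change -4.41, SE 0.70, adjusted p = 0.00155). Of 17 DNA methylation genes Zfp57, which protects imprints, rose from 143 ± 34.2 to 466 ± 335 and Gadd45b fell 3.49-fold; Dnmt1 was 33.6 ± 11.2 and 37.7 ± 10.6. In telomere maintenance, a process Zscan4 is known for in stem cells, 4 of 19 fell (21.1%, all genes 12.0%, genes of middle level 22.4%) and 2 rose. Terf1, which binds the repeats, fell 5.42-fold. The shelterin genes Tinf2 and Acd, which share exons with Gmpr2 and Carmil2, rose 2.41-fold and 1.85-fold. Telomere genes that fell numbered 2 without control 1 or control 2 or RNAi 4 or RNAi 6. Without control 5, 4 NuRD genes, 6 Polycomb genes and 4 telomere genes fell, and by edgeR 2, 5 and 2. Mta2 (1 setting, adjusted p up to 0.0616) and Acd (2 settings and 5 libraries, adjusted p up to 0.0838) lost their calls in such fits.

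Lineage and stress genes at this stage were also measured. Of 16 pluripotency factors 4 fell: Dppa5a fell without overlap from 630 ± 264 to 128 ± 38.4, and Klf5 fell 4.87-fold. Pou5f1, encoding OCT4, which shares exons with Gm19553, was 22.1 to 49.2 in controls 1 to 4, 199 in control 5 and 68.9 to 161 with RNAi (adjusted p = 0.0824). Tfap2c, a factor of the trophectoderm programme, held 73.0 to 89.1 in all 5 controls and 17.4 to 45.1 with RNAi, and fell 2.99-fold. Of 23 genes of the integrated stress and unfolded protein responses 7 fell (30.4%, all genes 12.0%). Among them were Dnajb9 (987 ± 433 to 229 ± 147) and Ppp1r15a (245 ± 80.1 to 85.1 ± 57.1), which share exons with Mir5627 and Tulp2. Hspa5, the main chaperone of the endoplasmic reticulum, was 183 ± 59.9 and 133 ± 58.1. Stress genes that fell numbered 4 without control 4. Without control 5, 3 pluripotency factors and 7 stress genes fell, and by edgeR 3 and 2. Of 12 measured interferon genes Ddx58, a sensor of double-stranded RNA, rose from 19 ± 9.23 to 71.8 ± 36.7, and Ifi35 and Irf3, which share exons with Gm11626 and Bcl2l12, fell. Ifi35 (1 setting, adjusted p up to 0.0979) and Irf3 (1 setting and 5 libraries, adjusted p up to 0.0896) lost their calls in such fits.

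Autophagy genes fell for 12 of 30 (40.0%, all genes 12.0%) and rose for 1 (median -1.15). Also without control 5, 12 fell, and by edgeR 9. Autophagy genes that fell numbered 7 without control 2 or control 4. Lamp2 (chrX:38401357-38456454), a lysosome membrane protein, stood at 263, 454, 157, 235 and 82.1 in controls 1 to 5 and at 29.5, 30.3, 29.99, 23.2, 46.9 and 36.4 in RNAi 1 to 6. All RNAi libraries lay in a narrow band below the controls (log2 fold change -2.65, SE 0.38, adjusted p = 0.00110). Gabarapl2, which encodes an ATG8 protein that coats the autophagosome, fell 5.00-fold. Atg5, which acts in its conjugation, rose from 183 ± 14.5 to 341 ± 104. Atg5 (2 settings and 8 libraries, adjusted p up to 0.0921) lost its call in such fits.

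**Figure D5:**
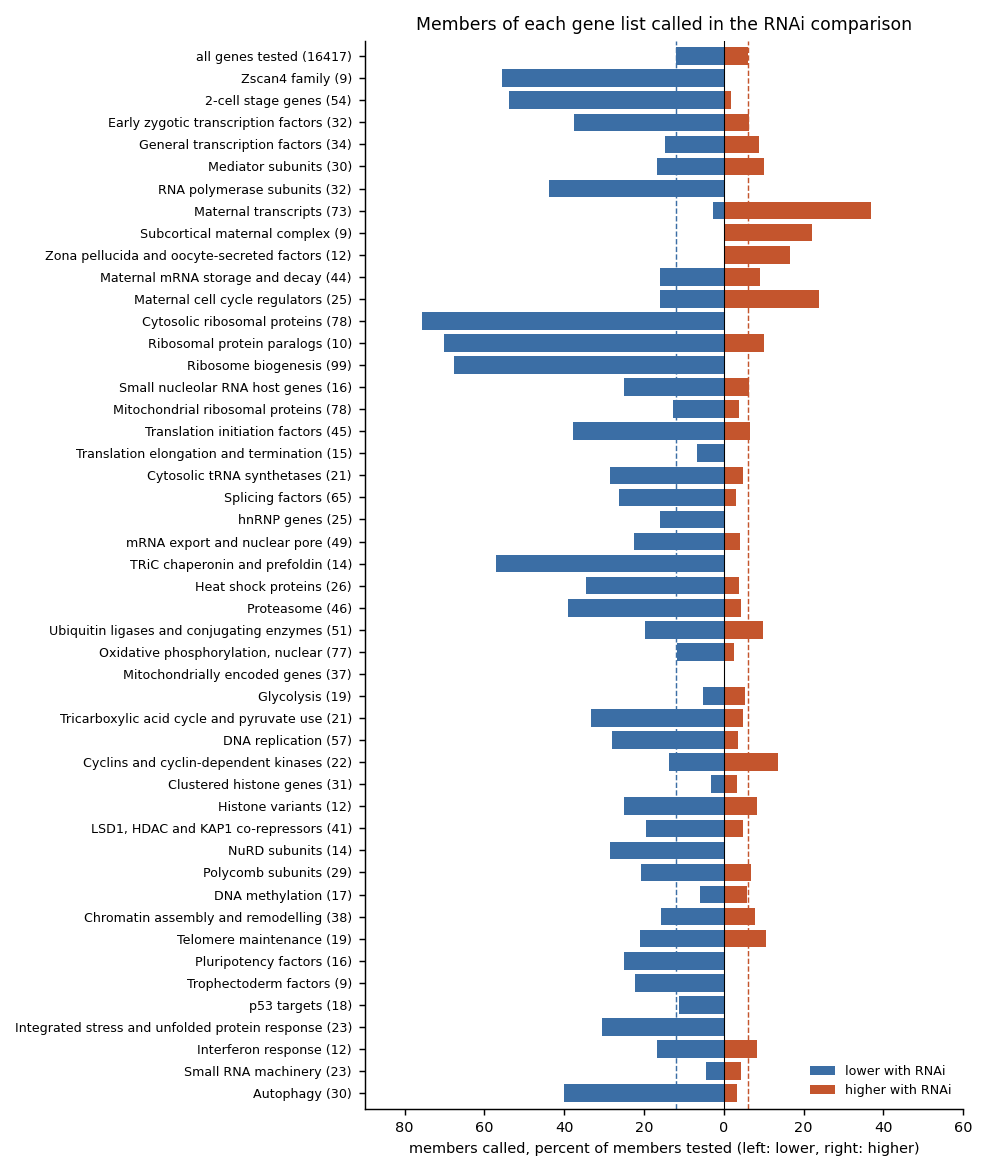
Percent of the tested members of each gene list shown that were lower (left) or higher (right) with RNAi by limma, with the number tested in brackets and the shares of all genes as dashed lines (12.0% lower, 6.13% higher). The lists of Obox genes (7 tested) and of Dux and its regulators (8 tested) are left out for their few members, as are the marker lists of other cells. Ribosomal protein genes, their paralogs, assembly factors, TRiC, Zscan4 and 2-cell stage lists pass 50% on the left. Maternal transcripts reach furthest to the right. The dashed lines include genes of few reads, which were seldom called, and are not matched for level.

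Genes of cells that could accompany an embryo were low. Of 16 cumulus or granulosa cell markers 4 passed the low-value filter, and their list summed to 25.2 to 79.7 normalised reads in controls and 10.4 to 37.1 with RNAi; Amhr2 was the called one, lower with RNAi. Of 10 sperm, 8 blood and 12 fibroblast markers 3, 3 and 4 passed; Cd74, which shares exons with Mir5107, was called, lower. No read was found for 4, 3, 2 and 2 markers of the 4 lists. Their part in the results was not tested. The sums were 1.17 to 30.3 and 4.34 to 17 for sperm, 39.8 to 107 and 7.81 to 147 for blood, and 13.9 to 40.1 and 18.9 to 53.4 for fibroblasts. Cd74 (2 settings and 1 library, adjusted p up to 0.103) lost its call in such fits.

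Within the 6 RNAi libraries, the Zscan4 sum was compared with the mean level of 4 lists. Pearson's r was 0.37 for 2-cell genes, 0.26 for ribosomal proteins, 0.31 for assembly factors and -0.47 for maternal transcripts, and Spearman's rho was 0.26, -0.09, 0.03 and -0.54. No relation passed a permutation test (exact p of r = 0.614, 0.706, 0.663 and 0.293, of rho = 0.658, 0.919, 1 and 0.297; all adjusted p at least 0.706 over 4 relations). Without RNAi 4 and RNAi 5, the libraries farthest from the median sum, r was -0.30, -0.66, -0.67 and -0.42 over 4 libraries, so the first 3 changed sign. RNAi 3, with a sum of 379, had the lowest mean level of ribosomal protein genes, 3.60, and RNAi 2, with 164, the highest of the RNAi libraries, 5.98.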

How the data were processed

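RNA-Seq libraries of 2-cell mouse embryos, 5 control and 6 Zscan4 RNAi, were compared; the stem cell libraries of the series, scaled in a separate table, were not used here. Trimmomatic, HISAT2, featureCounts and the mm10 build are named in the submitters' processing notes; versions, annotation, strand and multimapping settings were given by no source used here. The deposited values are a scaled signal per gene. In every library all values were whole multiples of 1 step within 0.01 reads, so reads could be recovered. The steps equal the reciprocals of median-of-ratios size factors computed from those reads. Because near-identical copies and overlapping genes cannot be separated under unknown counting settings, exon overlaps (GENCODE annotation) are named beside genes. Gene positions are on GRCm38.

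Genes with at least 1 normalised read in at least 5 libraries were tested with limma 3.58.1 (trend, R 4.3.3) on log2(value + 1), with Benjamini-Hochberg adjustment over all genes tested and a threshold of 0.05. The fit was tested on simulated data, where the smallest changes simulated were not recovered. edgeR 4.0.16 (quasi-likelihood), DESeq2 1.42.0 and voom with quality weights were run on recovered reads as alternatives, beside other pseudocounts, filters, scalings and leaving out each library. Single values were tested with exact permutation tests (scipy 1.17.1). Promoters and motifs came from RefSeq windows.

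The members and the 54 gene lists were chosen with earlier results of these data known. Named genes are all Zscan4 genes; in each direction the 15 largest changes among called, non-overlapping genes with a mean of at least 20, without predicted genes and pseudogenes; the 3 called genes with the smallest p per list and direction; the 10 most abundant per group; the 2 most abundant of a list without calls; and the co-repressors of the title. Text genes are drawn from these. The following were chosen after their values were seen: Obox1, Obox2, Obox5, Obox7, Gm12624, Zfp352, Tcstv1, Trim43b, Pramel7, Dppa3, Klf17, Gabpa, Polr2c, Znrd1, Eif5a, Eef1a1, Npm1, Ccnb1, Bcl2l10, Oas1e, Zp3, Nlrp5, H3f3b, Mastl, Pou5f1, Dnmt1, Rbbp7, Hspa5, Tdpoz1, Nop2 and Rpf2. Their tests are descriptions. No set of genes was tested as a set. Depth limits precision for genes with few reads, and counting intervals cover counting error only.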

Additional observations from a re-analysis of the deposited data

Results flagged for a closer look

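In 42 of 378 groups of libraries checked, 1 library stood apart: its gap to the nearest other library exceeded Dixon's 95% critical value as a share of the group's range. For normally distributed values chance gives this in about 1 in 20 groups. Single genes were checked as unlogged normalised reads, for which that rate was not tested, so 42 of 378 does not measure an excess. Genes that move together are not separate cases. Control libraries gave 13 of these and RNAi libraries 29; control 5 gave 10. RNAi 1 was high, in normalised reads, for Cd74 (24.7, others at most 9.02). It was low for Dnmt1 (17.2, others at least 38.2). RNAi 2 was high, in normalised reads, for Exoc3l2 (136, others at most 39.1), Gabarapl2 (184, others at most 69.7), Obox3 (194, others at most 50.8) and Pgam1 (58.2, others at most 26.1). It was also high for Ppp1r15a (198, others at most 80.7), Rfpl4b (84.5, others at most 28.2), Rpl10l (50.8, others at most 17.1) and Rpl9 (55.8, others at most 20.7). It was also high for Stmn3 (61.5, others at most 16.3) and Znrd1 (67.2, others at most 3.48). It was low for Ube2d1 (11.5, others at least 21.7). RNAi 3 was high, in normalised reads, for Wee2 (2647, others at most 1682). RNAi 4 was high, in normalised reads, for Gdf9 (1277, others at most 554), H1foo (1393, others at most 437), Klf17 (1698, others at most 868) and Taf13 (587, others at most 251). It was also high for Tcl1 (25436, others at most 15527) and Usp2 (488, others at most 266). RNAi 5 was high, in normalised reads, for Bcor (28.9, others at most 2.61), Dppa5a (202, others at most 124), Fbxo15 (197, others at most 100) and Nfyb (52.3, others at most 8.93). RNAi 6 was high, in normalised reads, for Ccnb2 (544, others at most 254), Duxf3 (103, others at most 31.3), Nlrp5 (520, others at most 131) and Oas1e (644, others at most 338). It was also high for Rbbp7 (1962, others at most 690). Control 2 was high, in normalised reads, for Irf3 (27.3, others at most 10.9). Control 4 was high, in normalised reads, for Cpeb1 (65.6, others at most 32.3). It was low for B020031M17Rik (43.3, others at least 81.3). Control 5 was high, in normalised reads, for Med1 (161, others at most 94.6), Npm2 (247, others at most 108), Pold3 (339, others at most 159) and Pou5f1 (199, others at most 49.2). It was also high for Tbl1xr1 (172, others at most 59.8), Usp2 (98.7, others at most 44.5), Zfp750 (55.7, others at most 18.7) and the number of genes detected after thinning (18165, others at most 16472). It was low for Cdk1 (147, others at least 537) and Snhg15 (29.3, others at least 111).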

How the results depend on the processing

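Leaving out 1 library at a time gave 1742 to 3575 changed genes, 519 to 1320 higher and 1209 to 2255 lower, 20 to 35 lower 2-cell genes, 15 to 28 higher maternal transcripts, 49 to 65 lower ribosomal protein genes and 42 to 72 lower assembly factors. Without the filter on low values 649 genes were higher, and voom with quality weights gave 1594 higher. By edgeR 1244 genes, 13 2-cell genes and 44 assembly factors were lower, and by DESeq2 19 2-cell genes. Without members that share exons with another gene, an alternative chosen after seeing the data, 32 of 40 ribosomal protein genes and 37 of 58 assembly factors were lower, from fewer genes counted. Otherwise the cause was not tested. The share of higher calls was 33.8%, 46.5% with quantile normalisation, 43.4% with voom and 26.0% with library-total scaling. The Zscan4 difference ran from -2.38 to -1.43 and passed the test under every alternative, as did the share of the 50 most abundant genes. Of 150 called genes named, 111 were called under every alternative that gave them an adjusted p, and none changed sign. Another 32 lost their call under another filter, scaling or tool and 7 only when a library was left out. Of 47 list counts of 1 to 3 genes, 31 moved by more than 1.5 times when some library was left out. No paired analysis was possible because the control columns carry no replicate numbers that match the labels. Depth limits genes of few reads, and 5 against 6 libraries limit all tests.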
